A study of Mus musculus with 4 samples.

Results

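The nuclear genes for subunits of the mitochondrial respiratory chain were compared between Bmal1 knockout and heterozygous mouse skin, complex by complex. Members were chosen by gene symbol: the Nduf genes of complex I, the Sdh genes of complex II, the Uqcr genes and Cyc1 of complex III, Cycs (cytochrome c), the Cox4 to Cox8 genes of complex IV and the Atp5 genes of complex V. Of 19938 genes with a probe set of their own, 83 were members: 35 of complex I, 4 of complex II, 9 of complex III, 17 of complex IV, 17 of complex V, and Cycs. Where a gene had several probe sets, the one with the highest mean was used. The filter on dim probe sets kept 82 members and left out Cox7b2, a form of subunit 7B, which read 5.44 in het 1, 5.21 in het 2, 5.49 in KO 1 and 5.24 in KO 2.

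Whole back skin came from 4 mice on a C57Bl6 background at postnatal day 22, in telogen (the rest phase of hair follicles), and was collected at ZT22, 22 hours after lights on. The controls, 2 heterozygous mice (het 1 and het 2), had 1 mutant and 1 wild-type Bmal1 allele. The 2 knockout mice (KO 1 and KO 2) lacked both alleles through the germline, so the deletion was not limited to the skin. Each mouse gave 1 Affymetrix whole-transcript array, and the number of arrays limits the precision of every value. All levels are log2 probe set values after quantile normalization, and all differences are knockout minus heterozygous on the log2 scale, with the moderated standard error (SE) of limma. A gene passed where its limma p, adjusted over all 16341 tested probe sets, was under 0.05.

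The respiratory chain moves electrons from NADH (complex I) and succinate (complex II) through complex III and cytochrome c to oxygen at complex IV, and complex V, the ATP synthase, uses the resulting proton gradient to make ATP. Most subunits are encoded in the nucleus, and a few, in complexes I, III, IV and V, by mitochondrial DNA. Some complex IV subunits exist in a form found mainly in heart and skeletal muscle and a form found in most tissues. Mouse back skin includes a thin sheet of skeletal muscle beneath the fat layer, so both forms can be read in the same sample.

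Arntl, the gene symbol of Bmal1, read 8.90 in het 1, 9.08 in het 2, 8.29 in KO 1 and 8.16 in KO 2, a difference of -0.76 (SE 0.12, limma adjusted p = 0.015). Markers of keratinocytes and fibroblasts were bright in all 4 arrays, with array medians from 11.60 to 12.20 and from 12.07 to 12.38. In the whole comparison 323 probe sets passed, 1.98% of those tested. At an unadjusted p under 0.05 stood 17.9% of probe sets, 11.6% higher and 6.38% lower in the knockout. This count depended on which probe sets entered the fit: it was 0 when probe sets paired with several genes were tested too, a setting in which the adjusted p of Arntl was 0.102 and 15.5% of probe sets had an unadjusted p under 0.05. It was 77 without KO 1 and 986 without het 1.

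Most subunit genes were higher in the knockout arrays, by small amounts, and 6 rose at the adjusted threshold: Sdhb of complex II, Cyc1 and Uqcr11 of complex III, Ndufa11 and Ndufs3 of complex I, and Cox8b of complex IV. No member fell at that threshold. The 6 were 7.32% of the 82 tested members, where 1.51% of all 14919 tested genes rose. At an unadjusted p under 0.05, 31 members were higher, or 37.8%, against 11.6% of all tested genes, and 3 were lower, or 3.66%, against 6.24%. The mean was higher in the knockout for 67 members, 81.7% of those tested and 54.8% of all genes. This count depended on the scaling: after median centring 76 of the 82 were higher, since Ndufa4, Ndufc1, Cox4i2, Cox7a2l, Cox8a, Atp5g2, Atp5h, Atp5j and Atp5mpl turned from below to above 0. Of all probe sets at an unadjusted p under 0.05 the share higher was then 79.3%, against 64.4% here. Both knockout arrays lay above both heterozygous arrays for 54 members, or 65.9%, against 28.3% of all genes, and below them for 8 of the 82, against 21.9% of all genes. The median difference was 0.20 over the members and 0.02 over all tested genes.

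The 6 calls rested on few arrays. All 6 ended when probe sets of several genes were tested too (adjusted p from 0.0945 to 0.161) and without KO 1 (adjusted p from 0.0844 to 0.263), while 10 members passed without het 1. Sdhb, Cyc1 and Ndufa11 passed without het 1, het 2 or KO 2, and Cox8b, Uqcr11 and Ndufs3 each lost the call without het 1 and without KO 2, Ndufs3 also without het 2. The 7 members that passed without het 1 and not with it were Atp5b, Ndufa9, Ndufb9, Ndufs1, Ndufv1 and Sdha, all higher, and Ndufa4l2, lower. The 31 members higher at an unadjusted p under 0.05 became 19 without KO 1 and 31 with the probe sets of several genes. Members share their arrays and tissue and are no independent replicates of the genotype, so their counts describe these 4 mice. The heat map of all tested members by array shows the same pattern gene by gene.

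**Figure D1:**
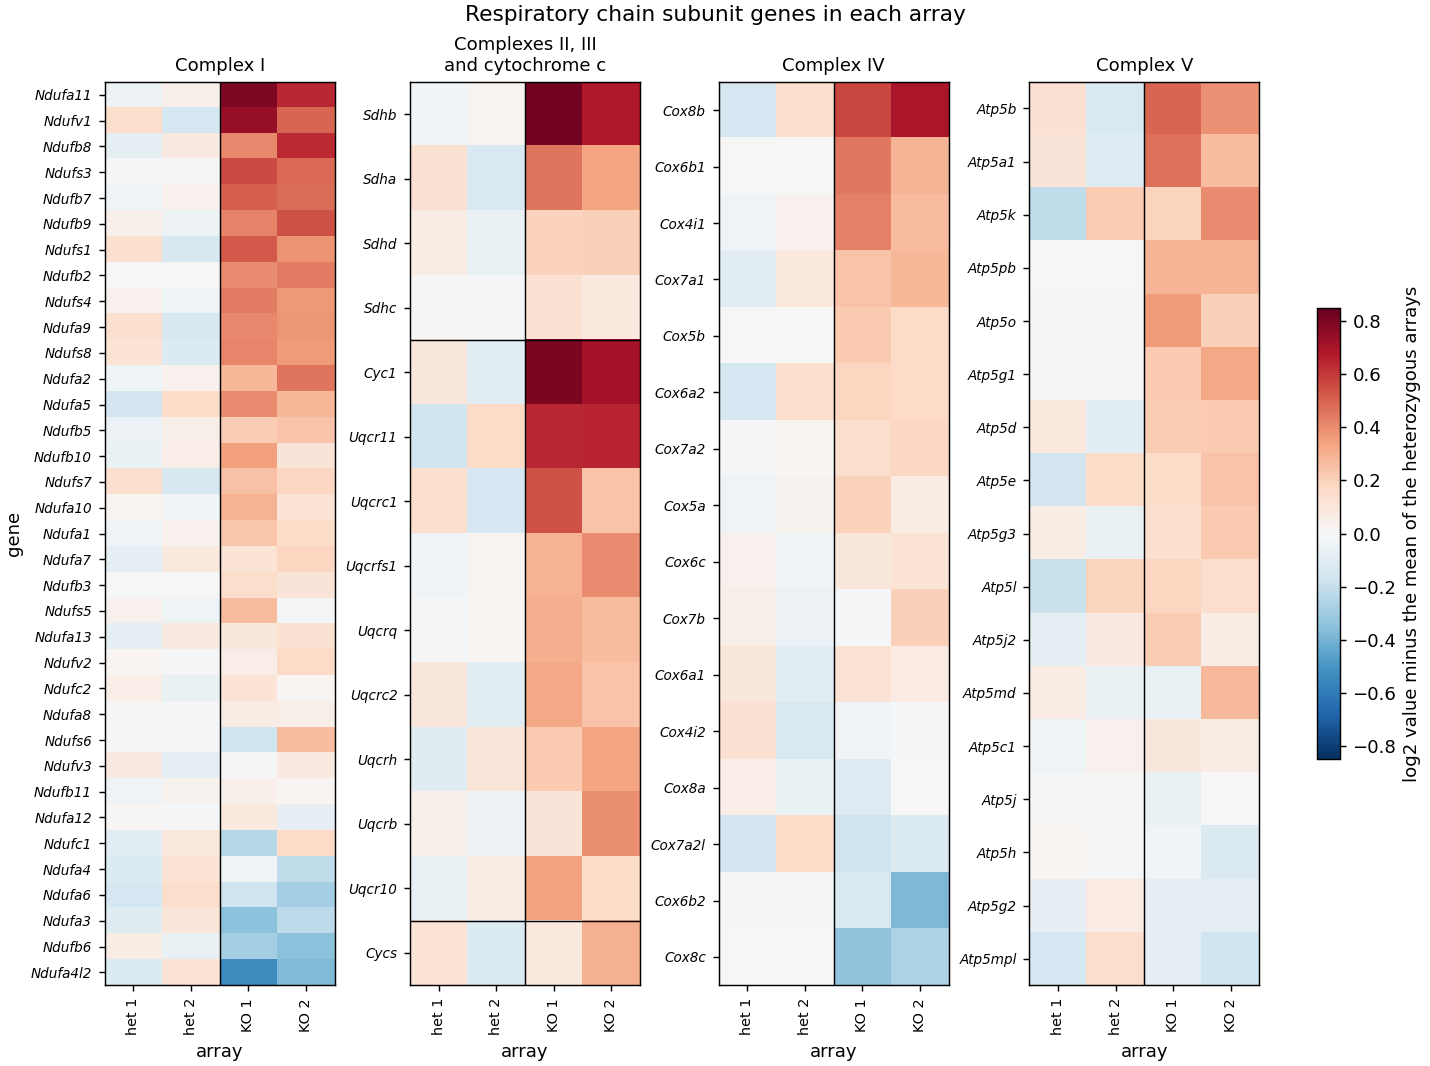
Each row is 1 of the 82 tested subunit genes, each column 1 array, and the colour is the log2 value minus the mean of the heterozygous arrays; rows are ordered by the difference within each complex. In 54 rows both knockout arrays lie above the heterozygous ones, and in 8 rows both are lower.

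The promoters of these genes were searched for binding motifs, among them the E-box CACGTG that CLOCK and BMAL1 bind. RefSeq promoter windows of build GRCm38.p6, from 250 bases before to 50 after a transcript start, matched 67 of the 83 members by symbol. The E-box was in a window of 6 of these 67, or 8.96%, and of 8.09% of all 27025 genes with a window. The palindromic motif of NRF1, a regulator of many respiratory genes, was in 16, or 23.9%, against 5.19% of all genes, and the ETS motif CCGGAAGT in 5, or 7.46%, against 4.31%. The motif TCAAGGTCA of the estrogen-related receptors was in 2 (2.99%, against 0.466%), and the D-box TTATGTAA in 1 (1.49%, against 1.11%). Both strands were searched, a gene counted when any of its windows held the motif, and none of these motifs contains another. A match describes the letters in the window and is not a measured binding site.

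Members with an E-box had a median difference of 0.23, and those with a window but no E-box 0.20. Members with the NRF1 motif had a median difference of 0.16, and those without it 0.20. For the ETS motif these medians were 0.28 and 0.20. It was in Atp5h, Cox8a, Ndufs3, Uqcr11 and Uqcrh, of which Ndufs3 and Uqcr11 passed. The members with an E-box were Ndufv1, Ndufa7, Atp5g1, Atp5g3, Atp5l and Atp5pb, of which none passed. Ndufv1 had the highest difference among these, Ndufa11 was the member past the threshold that held the NRF1 motif, and Cox8a and Cox8b are the general and the muscle form of a pair of which 1 rose and the other did not pass. Their windows are shown for that reason, 5′ to 3′ in the direction of the gene, with the motif matches in capitals: the E-box in Ndufv1 (chr19:4012706-4013005, minus strand), the NRF1 motif in Ndufa11 (chr17:56717512-56717811, plus strand), 2 copies of the ETS motif on the opposite strand in Cox8a (chr19:7217567-7217866, minus strand) and no match in Cox8b (chr7:140900397-140900696, minus strand).
Ndufv1: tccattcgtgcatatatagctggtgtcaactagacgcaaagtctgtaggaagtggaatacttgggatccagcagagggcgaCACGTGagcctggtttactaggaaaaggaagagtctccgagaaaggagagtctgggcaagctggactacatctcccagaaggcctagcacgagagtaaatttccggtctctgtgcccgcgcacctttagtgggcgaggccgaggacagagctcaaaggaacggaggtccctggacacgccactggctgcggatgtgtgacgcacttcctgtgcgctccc
Ndufa11: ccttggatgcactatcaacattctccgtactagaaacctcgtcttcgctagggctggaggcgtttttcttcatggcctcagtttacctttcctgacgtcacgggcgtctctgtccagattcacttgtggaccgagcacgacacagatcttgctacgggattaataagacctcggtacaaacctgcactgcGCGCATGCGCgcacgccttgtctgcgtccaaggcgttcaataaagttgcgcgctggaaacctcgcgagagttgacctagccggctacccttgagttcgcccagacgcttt
Cox8a: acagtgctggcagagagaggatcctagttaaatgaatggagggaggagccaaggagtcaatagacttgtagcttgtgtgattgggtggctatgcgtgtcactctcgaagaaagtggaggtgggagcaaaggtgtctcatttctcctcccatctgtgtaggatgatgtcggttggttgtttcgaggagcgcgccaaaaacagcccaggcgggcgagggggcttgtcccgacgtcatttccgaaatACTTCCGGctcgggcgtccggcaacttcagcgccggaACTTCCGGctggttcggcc
Cox8b: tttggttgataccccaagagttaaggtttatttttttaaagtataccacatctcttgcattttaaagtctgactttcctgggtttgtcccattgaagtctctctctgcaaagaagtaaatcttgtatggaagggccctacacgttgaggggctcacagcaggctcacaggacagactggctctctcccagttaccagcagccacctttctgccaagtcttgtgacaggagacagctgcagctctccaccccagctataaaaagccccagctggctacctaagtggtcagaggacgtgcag

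Complex I, the NADH dehydrogenase, had 35 tested members with a median difference of 0.20. Of these 29 were higher (82.9%, against 54.8% of all tested genes) and 6 lower. At an unadjusted p under 0.05, 13 were higher (37.1%, against 11.6% of all tested genes) and 3 lower (8.57%, against 6.24%). At the adjusted threshold 2 rose (5.71%, against 1.51%). Ndufs3, a core subunit of the arm that carries electrons in the matrix, read 10.31 in het 1, 10.32 in het 2, 10.87 in KO 1 and 10.79 in KO 2. The knockout arrays lay above the others by more than either pair differed within itself, and the difference was 0.52 (SE 0.11, limma adjusted p = 0.046). Its other probe set differed by 0.50 (limma adjusted p = 0.051). Ndufa11, an accessory subunit of the membrane arm, read 9.88 in het 1, 9.96 in het 2, 10.71 in KO 1 and 10.56 in KO 2. Its difference was 0.72 (SE 0.12, limma adjusted p = 0.017), but the other probe set of this gene differed by 0.44 (limma adjusted p = 0.080), so its size depended on the probe set.

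The nuclear-encoded core subunits of complex I, which have counterparts in the bacterial enzyme, had a higher median difference than the accessory subunits. All 6 core members analysed (Ndufs1, Ndufs3, Ndufs7, Ndufs8, Ndufv1 and Ndufv2) lay above both heterozygous mice in each knockout mouse, with a median of 0.42. The 29 other members, with Ndufa4 and Ndufa4l2 counted among them by symbol alone, had a median of 0.13. Of these 23 were higher (79.3%, against 54.8% of all tested genes). Above both heterozygous arrays stood 17 of the 29 (58.6%) and all 6 core members, against 28.3% of all tested genes. Ndufv1, which holds the flavin that accepts electrons from NADH, read 9.69 in het 1, 9.40 in het 2, 10.28 in KO 1 and 10.04 in KO 2. It was higher by 0.62 (SE 0.14) and did not pass (limma adjusted p = 0.056). Ndufs1 differed by 0.45, Ndufs8 by 0.39, Ndufs7 by 0.21 and Ndufv2 by 0.11, and none of these passed. Het 2 minus het 1 had a median of -0.25 among the core members, and the core median was 0.54 for KO 1 against het 2 and 0.25 for KO 2 against het 1. Core and accessory subunits were set apart by a list chosen with earlier results known, and the difference between them has no test.

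Accessory subunits of complex I stabilize the enzyme and its assembly. Of the 29 members counted as accessory by symbol, 23 were higher (79.3%, against 54.8% of all tested genes) and 6 lower. Ndufb7 read 8.87 in het 1, 8.94 in het 2, 9.41 in KO 1 and 9.38 in KO 2, a difference of 0.49 (SE 0.11, limma adjusted p = 0.053). Ndufb8 differed by 0.52, Ndufb9 by 0.48 and Ndufb2 by 0.42, each with both knockout arrays above the heterozygous range. At the other end stood Ndufa4l2, a paralogue of Ndufa4 induced by low oxygen and counted in complex I by its symbol alone. Ndufa4l2 read 9.58 in het 1, 9.81 in het 2, 9.16 in KO 1 and 9.32 in KO 2. It differed by -0.45 (SE 0.12, limma adjusted p = 0.096). Ndufb6 (-0.32), Ndufa3 (-0.28) and Ndufa6 (-0.23) were also below the heterozygous range in both knockout arrays. Ndufa4, named as a complex I gene but now placed in complex IV, overlapped between the genotypes at -0.12, or 0.02 after median centring.

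Complex II, succinate dehydrogenase, is also an enzyme of the citric acid cycle and has no mitochondrially encoded subunit. All 4 members lay above both heterozygous mice in each knockout mouse, with a median of 0.30. This placement held for 28.3% of all tested genes. At an unadjusted p under 0.05, 2 were higher (50%, against 11.6% of all tested genes) and 0 lower (against 6.24%). At the adjusted threshold 1 rose (25%, against 1.51%). Sdhb, the iron-sulphur subunit, read 9.88 in het 1, 9.93 in het 2, 10.72 in KO 1 and 10.58 in KO 2. It rose by 0.75 (SE 0.11, limma adjusted p = 0.013), or 1.68-fold. Sdha, the flavoprotein that oxidizes succinate, read 10.71 in het 1, 10.45 in het 2, 11.03 in KO 1 and 10.91 in KO 2. It differed by 0.40 (SE 0.13, limma adjusted p = 0.14), and by 0.27 without het 2. The membrane anchors Sdhd (0.20) and Sdhc (0.11) did not pass. The 4 differences ran from 0.11 to 0.75.

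Complex III, the cytochrome bc1 complex, passes electrons from ubiquinol to cytochrome c. All 9 members were above the heterozygous range in both knockout arrays, with differences from 0.25 to 0.75 and a median of 0.29. This placement held for 28.3% of all tested genes. At an unadjusted p under 0.05, 7 of the 9 were higher (77.8%, against 11.6% of all tested genes). At the adjusted threshold 2 rose (22.2%, against 1.51%). Cyc1, cytochrome c1, which hands electrons to cytochrome c, read 10.14 in het 1, 9.95 in het 2, 10.84 in KO 1 and 10.75 in KO 2. It rose by 0.75 (SE 0.12, limma adjusted p = 0.016), or 1.68-fold. Uqcr11, a small accessory subunit, read 9.89 in het 1, 10.23 in het 2, 10.70 in KO 1 and 10.71 in KO 2. It rose by 0.64 (SE 0.13, limma adjusted p = 0.043), but the heterozygous mice differed from each other by 0.34. The second Uqcr11 probe set differed by 0.28 (limma adjusted p = 0.25), and with the mean of both probe sets the gene did not pass (0.46, limma adjusted p = 0.082).

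The remaining complex III members lay close together. Uqcrfs1, the Rieske iron-sulphur protein, differed by 0.35, the core proteins Uqcrc1 and Uqcrc2 by 0.39 and 0.28, and Uqcrq, Uqcrh, Uqcrb and Uqcr10 by 0.25 to 0.29. None of these passed. Between the pairs of arrays, the complex III median was 0.33 for KO 1 against het 1, 0.29 for KO 1 against het 2, 0.35 for KO 2 against het 1 and 0.38 for KO 2 against het 2. Cycs, the electron carrier that leaves complex III, overlapped between genotypes, with 12.40 in het 1, 12.17 in het 2, 12.38 in KO 1 and 12.59 in KO 2 (0.20, SE 0.13, limma adjusted p = 0.47).

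**Figure D2:**
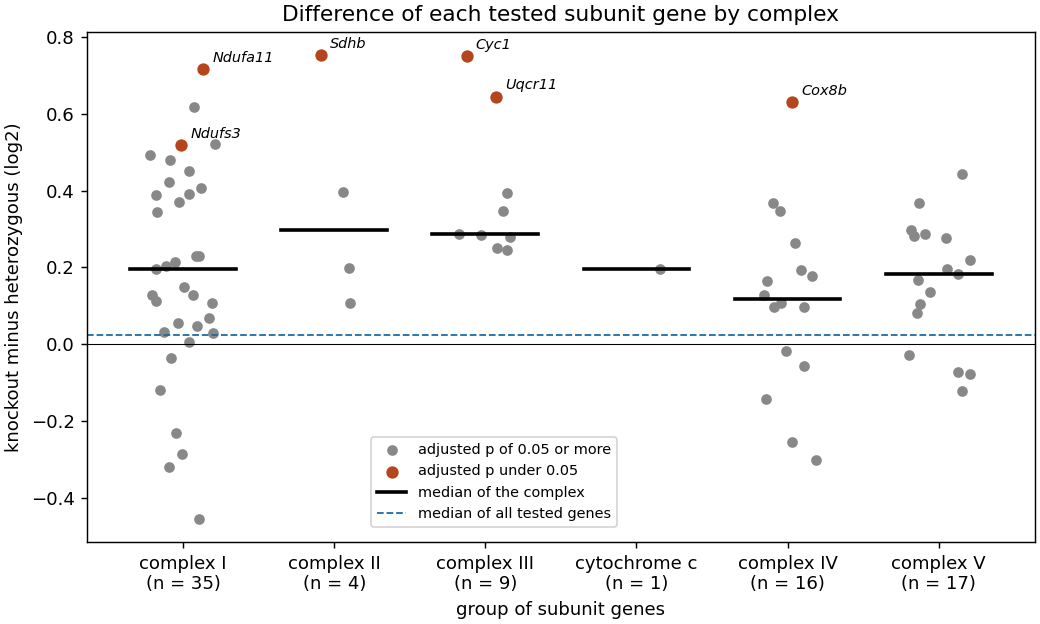
Each point is 1 tested subunit gene, placed by complex on the x axis and by its knockout minus heterozygous difference (log2) on the y axis; black bars are the median of each complex and the dashed line is the median of all tested genes. All 9 complex III genes and all 4 complex II genes lie above 0, while complexes I, IV and V hold genes on both sides. Of all tested genes 54.8% were higher in the knockout.

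Complex IV, cytochrome c oxidase, had a median of 0.12 over 16 tested members. Of these 11 were higher (68.8%, against 54.8% of all tested genes) and 5 lower. At an unadjusted p under 0.05, 4 were higher (25%, against 11.6% of all tested genes) and 0 lower (against 6.24%). At the adjusted threshold 1 rose, Cox8b (6.25%, against 1.51%). Cox6b1, a subunit at the face where cytochrome c docks, read 11.65 in het 1, 11.66 in het 2, 12.11 in KO 1 and 11.95 in KO 2. Its difference was 0.37 (SE 0.12, limma adjusted p = 0.14). Cox4i1, the general form of the largest nuclear-encoded subunit, differed by 0.35 (SE 0.12, limma adjusted p = 0.16), with both knockout arrays higher. Cox5b (0.19), Cox5a (0.13), Cox6c (0.11) and Cox7b (0.10) were closer to 0. Cox7a2l, which joins complexes III and IV into larger assemblies, differed by -0.14, a sign that median centring turned. With the probe sets filtered at the 50th percentile the median of the complex was 0.16, because the dim tissue-restricted members Cox4i2, Cox6b2 and Cox8c were no longer tested.

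Of the muscle forms Cox8b rose, while Cox8a, its general counterpart, did not pass. Cox8b, also known from brown fat, read 11.27 in het 1, 11.55 in het 2, 11.98 in KO 1 and 12.11 in KO 2. It rose by 0.63 (SE 0.13, limma adjusted p = 0.043). Cox8a read 11.77 in het 1, 11.65 in het 2, 11.60 in KO 1 and 11.70 in KO 2, which overlap (-0.06, SE 0.12, limma adjusted p = 0.84; 0.02 after median centring). Within each array, Cox8b minus Cox8a was 0.69 higher in the knockout. Relative to the mean of the heterozygous arrays it stood at 0.20 in het 2, at 0.68 in KO 1 and at 0.70 in KO 2. An exact two-sided permutation test gave p = 0.333, the smallest that 2 against 2 arrays allow.

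The other muscle forms did not pass, nor did their general forms. Cox7a1 read 10.65 in het 1, 10.82 in het 2, 10.98 in KO 1 and 11.01 in KO 2, a difference of 0.26 (SE 0.12, limma adjusted p = 0.27). Cox7a2, its general form, differed by 0.16, and the change of the ratio was 0.10 (exact permutation p = 0.333, two-sided), or 0.026 without het 1 and 0.17 without het 2. Cox6a2 read 10.41 in het 1, 10.70 in het 2, 10.74 in KO 1 and 10.72 in KO 2, a difference of 0.18 (SE 0.13, limma adjusted p = 0.5) against 0.10 for Cox6a1. Here the ratio changed by 0.08 (exact permutation p = 1, two-sided), and by -0.16 without het 1 and 0.32 without het 2. Whether the 3 ratios changed by different amounts was not tested. In all, 8 such ratios were computed, and none could reach a p under 0.333.

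None of the forms restricted to other tissues passed. Cox6b2, a testis form, read 7.46 in het 1, 7.44 in het 2, 7.32 in KO 1 and 7.07 in KO 2 (-0.26, SE 0.14, limma adjusted p = 0.37), while Cox6b1 was higher, and the ratio changed by -0.62 (exact permutation p = 0.333, two-sided). Cox8c, another testis form, differed by -0.30. Cox4i2, a form of lung and of low oxygen, differed by -0.02 (SE 0.13), and 0.01 after median centring, against 0.35 for Cox4i1. These 3 genes were among the dimmest members tested. Their heterozygous means were 7.45 for Cox6b2, 7.03 for Cox8c and 7.71 for Cox4i2, against the filter value of 6.67.

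**Figure D3:**
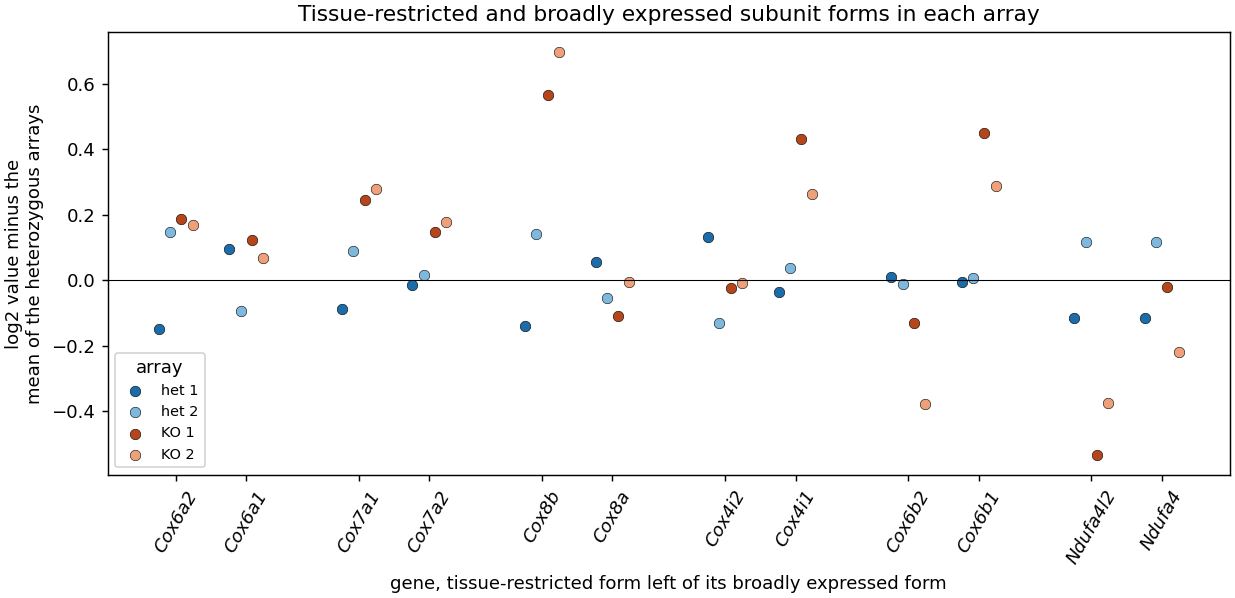
Each point is 1 array, placed by gene on the x axis, with the tissue-restricted form left of its general form, and by its log2 value minus the mean of the heterozygous arrays on the y axis. The knockout arrays of Cox8b stand above both heterozygous arrays while those of Cox8a do not, and Cox6b2 and Cox6b1 move apart in opposite directions.

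Complex V, ATP synthase, had 17 tested members with a median of 0.18. Of these 13 were higher (76.5%, against 54.8% of all tested genes), 4 lower and 0 past the adjusted threshold. At an unadjusted p under 0.05, 5 were higher (29.4%, against 11.6% of all tested genes) and 0 lower (against 6.24%). The 5 subunits of the catalytic F1 head all lay above both heterozygous mice in each knockout mouse, with a median of 0.22. This placement held for 28.3% of all tested genes. Atp5b, the catalytic beta subunit, read 12.46 in het 1, 12.19 in het 2, 12.82 in KO 1 and 12.72 in KO 2 (0.44, SE 0.13, limma adjusted p = 0.11). Atp5a1, the alpha subunit, differed by 0.37 (SE 0.13, limma adjusted p = 0.17), or 0.26 without het 2 and 0.47 without het 1. The gamma subunit Atp5c1 differed by 0.08. Of the 12 other members 8 were higher (66.7%, against 54.8% of all tested genes). Both knockout arrays lay above both heterozygous arrays for 4 of these 12 (33.3%, against 28.3%) and below them for 2. Atp5pb, a peripheral stalk subunit, read 10.76 in het 1, 10.76 in het 2, 11.05 in KO 1 and 11.04 in KO 2, with almost no spread within either genotype (0.29, SE 0.11, limma adjusted p = 0.2).

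The 3 genes for the membrane ring subunit c, which encode the same mature protein, had unlike values. Atp5g1 differed by 0.28 and Atp5g3 by 0.18, each with both knockout arrays above the heterozygous range, and Atp5g2 by -0.08, a sign that median centring turned. Atp5mpl, a small membrane subunit, was lowest at -0.12 (limma adjusted p = 0.67) and turned to 0.03 without het 2 and 0.01 after median centring. Without het 1 the median of complex V was 0.08. In 17 members with more than 1 probe set, all probe sets of a gene lay on the same side of 0, and the other probe sets of Atp5l differed by 0.22 to 0.33 where the one used differed by 0.17. Several of these genes are known to have processed copies in the genome, and their probe sets may read more than 1 transcript.

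Most genes that build or regulate the chain were higher too. Of 42 tested assembly factors 36 were higher, 16 of them at an unadjusted p under 0.05, with 1 lower at that level and 0 past the adjusted threshold; the median was 0.19. Over all tested genes 54.8% were higher, 11.6% at an unadjusted p under 0.05, and 6.24% were lower at that level. Tmem70, needed to assemble ATP synthase, differed by 0.54 (SE 0.13, limma adjusted p = 0.076), and Cmc1, a factor of complex IV, by -0.44 (SE 0.12, limma adjusted p = 0.086). Of 14 tested regulators of mitochondrial genes 12 were higher, 4 at an unadjusted p under 0.05, and 1 rose, where 1.51% of all genes rose. Ppargc1a, the coactivator PGC-1 alpha, read 7.90 in het 1, 7.88 in het 2, 8.40 in KO 1 and 8.45 in KO 2. It rose by 0.54 (SE 0.11, limma adjusted p = 0.042; 0.134 with probe sets of several genes tested and 0.198 without KO 1), and the call was also lost without KO 2, without het 2, with no filter, with eBayes lacking the trend (0.0616) and with the mean of its probe sets (a difference of 0.46, limma adjusted p = 0.0702). Tfam, a transcription factor that also packs mitochondrial DNA, differed by 0.62 (SE 0.14, limma adjusted p = 0.057). Without het 1 both Tmem70 (0.70, limma adjusted p = 0.0185) and Tfam (0.74, limma adjusted p = 0.0204) passed.

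Among mitochondrial proteins outside the chain most were higher. Of 19 tested genes for the outer membrane, import, chaperones, citrate synthase and carriers, 18 were higher, 10 at an unadjusted p under 0.05, with a median of 0.26 and 0 past the adjusted threshold; the shares over all genes were 54.8% and 11.6%. Slc25a4, the ADP/ATP carrier of muscle and heart, differed by 0.52 (SE 0.12, limma adjusted p = 0.057), and Hspa9, a matrix chaperone, by 0.60 (SE 0.16, limma adjusted p = 0.082). Slc25a4 passed without het 2 (0.58, limma adjusted p = 0.0451) and Hspa9 without het 1 (0.80, limma adjusted p = 0.0187). The 2 mitochondrially encoded subunit genes that had a probe set of their own had negative differences. ND3, of complex I, read 13.04 in het 1, 13.06 in het 2, 12.58 in KO 1 and 12.84 in KO 2 (-0.34, SE 0.13, limma adjusted p = 0.20). COX2, of complex IV, differed by -0.23 (SE 0.12, limma adjusted p = 0.35). Both genes lay below the heterozygous range in each knockout mouse with the brightest probe set, but the second ND3 probe set overlapped (-0.08), while that of COX2 did not (-0.24). Without KO 1 the differences were -0.21 for ND3 and -0.14 for COX2, and without KO 2 they were -0.47 and -0.33. Neither passed.

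Markers of skeletal muscle and of sebaceous glands were higher in the same arrays, and their part in the subunit differences was not tested. In bulk skin a larger share of a cell type and more RNA per cell cannot be told apart. All 20 fast muscle markers were tested and 19 were higher, against 54.8% of all tested genes, with a median of 0.51. At an unadjusted p under 0.05, 18 were higher, or 90%, against 11.6% of all tested genes. Their summed linear signal was 73794 in het 1, 76442 in het 2, 114109 in KO 1 and 95560 in KO 2. Ckmt2, the mitochondrial creatine kinase of muscle, rose by 1.06 (SE 0.13, limma adjusted p = 0.0084), and Casq1, calsequestrin of fast fibres, by 0.82 (SE 0.12, limma adjusted p = 0.013; 0.102 without KO 1). In all, 4 fast muscle markers rose, or 20%, where 1.51% of all tested genes rose. All 7 sebocyte markers were higher, against 54.8% of all tested genes, with a median of 0.65. Their summed signals ran from 11660 to 15651 in the heterozygous and from 20673 to 21755 in the knockout arrays. Awat1, a wax ester enzyme, rose by 1.12 (SE 0.16, limma adjusted p = 0.012), and Elovl3, a fatty acid elongase of sebocytes and brown fat, by 0.82 (SE 0.12, limma adjusted p = 0.012; 0.0601 without KO 1).

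Other cell type lists did not rise together. Over the 8 slow muscle markers het 2 had a median of 0.90 over het 1 (8.19 against 6.32 for Myl2, the slow myosin light chain). Het 2 stood apart from every other array for Myh7, Myl2, Myl3, Tnnc1 and Tnni1. For Tnnt1 het 1 was the low array, at 7.06, for Casq2 both heterozygous arrays were low, and for Atp2a2 het 2 was below het 1. The list had a median difference of -0.47. Its medians were 0.02 for KO 1 and -0.12 for KO 2 against het 1, and -0.88 and -0.95 against het 2. The list parted in direction, with Casq2 higher by 2.45 (SE 0.15, limma adjusted p = 3.0e-04) and Myh7, the slow myosin heavy chain, at -0.73 (SE 0.21, limma adjusted p = 0.11). Myh7 was at -0.34 without het 2 and at -1.11 without het 1, where it passed (limma adjusted p = 0.0045). Summed slow muscle signal overlapped, from 3226 to 4292 in the heterozygous and from 3593 to 4396 in the knockout arrays. Ucp1, the defining gene of brown fat, was below the filter, at 5.70 in het 1, 5.49 in het 2, 6.01 in KO 1 and 5.78 in KO 2. The brown fat list had a median of -0.07 over 6 tested markers, and its summed signal was from 2201 to 2661 in the heterozygous and from 3397 to 3676 in the knockout arrays. Its leading genes were Elovl3, above, and Cidea (0.70, SE 0.15, limma adjusted p = 0.051; past the threshold without het 1 at 0.91 and without KO 2 at 0.81, and 0.49 without het 2). White fat, keratinocyte, fibroblast and macrophage lists had medians of 0.08, 0.16, 0.07 and -0.0014, with 0 genes past the adjusted threshold in any of the 4 with all arrays. Summed signals of all 4 lists overlapped between genotypes. By unadjusted p their leading genes were Lep (-0.60) and Retn (0.47), Krt15 (0.22) and Lor (0.16), Col3a1 (0.20) and Dcn (-0.10), and Cd68 (-0.65) and Adgre1 (-0.13; 0.02 after median centring). Single heterozygous mice moved several of these: without het 1 Retn was at 0.83 and passed (limma adjusted p = 0.0082), without het 2 it was at 0.11. Without het 2 Lep (-0.93, limma adjusted p = 0.038) and Cd68 (-0.87, limma adjusted p = 0.017) passed, and without het 1 they were at -0.26 and -0.42. With 1 array left out Krt15 ran from 0.026 (without het 2) to 0.41 (without het 1), Lor from 0.079 (without KO 1) to 0.25 (without KO 2), Col3a1 from 0.090 (without het 2) to 0.32 (without het 1), Dcn from -0.20 (without het 2) to -0.0034 (without het 1), and Adgre1 from -0.22 (without KO 2) to -0.04 (without KO 1).

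Each pair of 1 knockout and 1 heterozygous array gave a positive median for each of complexes I to V. For complex IV the medians ran from 0.11 to 0.16 and for complex V from 0.06 to 0.24. Over all tested genes they ran from -0.04 to 0.10. The fast muscle list ran from 0.26 to 0.73 and was highest for KO 1 against het 1, while complex II was highest for KO 1 against het 2 and complex III for KO 2 against het 2. Whether the lists differ in this was not tested.

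**Figure D4:**
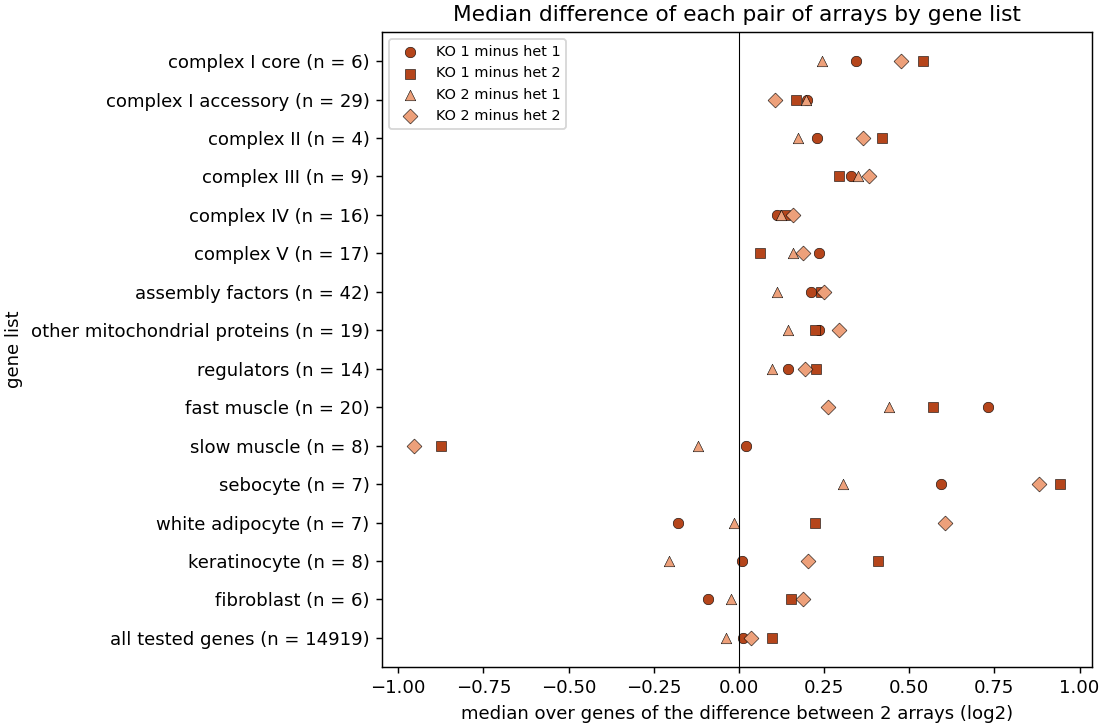
Each point is the median over a gene list of the log2 difference between 1 knockout and 1 heterozygous array, with the list on the y axis and 1 symbol for each of the 4 pairs of arrays. The points of complexes I to V lie above 0, those of complex IV from 0.11 to 0.16, while the keratinocyte, fibroblast, white fat and slow muscle lists hold points on both sides of 0.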

How the data were processed

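RNA was extracted with TRIzol and an RNeasy column, per the labels' protocols, amplified from random primers (Ambion WT) and hybridized as biotin-labelled DNA. The submitters' processing notes name Expression Console 1.1.1 and PLIER 2.0. The authors deposited 1 table of 35557 probe sets, taken to be on a log2 scale from its range (2.54 to 14.9); no source used here gives the scale, any step between arrays or the genome build. Array quartiles differed by up to 0.337, so the arrays were quantile normalized. At most 0.104% of values were equal in any 2 arrays.

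In the platform annotation, 21789 probe sets had 1 gene symbol, several symbols stood beside 1621, and 12147 had no symbol. The symbols of 21698 were taken by gene identifier from a table of GRCm38.p6, whether or not this changed them. Tested were the 16341 probe sets of 1 gene whose mean lay above the 25th percentile (6.67), with limma 3.58.1 in R 4.3.3 (lmFit, eBayes with a trend, Benjamini-Hochberg over all tested, 2 residual degrees of freedom). The design text calls the mice littermate replicates. The p-values weigh each difference against the spread between these mice, moderated by limma toward a trend over all tested probe sets. For Atp5pb the 2 arrays of a genotype differed by 0.0056 (heterozygous) and 0.0044 (knockout), while its moderated SE was 0.11. The test was checked on simulated data.

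Members and lists were chosen with earlier results of these data known. Named were Arntl, the 3 members with the smallest p and the lowest member of each complex, all members past the threshold or in an isoform pair, the member not tested, and the 2 leading genes of each other list; the remaining members in the text were chosen with values known. Alternatives were the deposited values, median centring, an offset of 16, no filter, the 50th percentile, and eBayes without trend or robust. Further ones were the replicate number as a block, each array left out, and the mean or the brightest probe set per gene. Added after the data were seen were probe sets of several genes tested too and Ndufa4 counted in complex IV. The first of these had been the setting of an earlier run on these data, in which 0 of 17557 tested probe sets passed.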

Additional observations from a re-analysis of the deposited data

How the results depend on the processing

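The medians of complexes I to V were positive under every alternative run for them, and their sizes changed with the scaling. With the deposited values the medians of complexes I to IV were 0.26, 0.40, 0.39 and 0.22, and after median centring those of complexes I to V were 0.29, 0.43, 0.43, 0.26 and 0.27, while the median of all tested genes was 0.07 and 0.10. The 50th percentile filter gave 0.16 for complex IV. The share of higher genes among those at an unadjusted p under 0.05 was 64.4%, 72% with the deposited values and 79.3% after median centring. With 1 array left out, the medians ran from 0.16 to 0.24 for complex I, 0.20 to 0.39 for complex II, 0.31 to 0.34 for complex III, 0.11 to 0.15 for complex IV and 0.083 to 0.22 for complex V.

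Members past the threshold numbered 6. There were 10 with the deposited values, 16 after median centring, 3 without a filter, 10 at the 50th percentile, 3 without a trend and 0 with probe sets of several genes tested too. Probe sets past it numbered 323, against 544 with the deposited values, 913 after median centring, 145 without a filter and 0 with probe sets of several genes. With 1 array left out, members past the threshold ran from 0 (without KO 1) to 10 (without het 1), all probe sets from 77 to 986 on the same arrays, members higher at an unadjusted p under 0.05 from 19 to 26, and members lower from 1 to 3. The replicate number as a block gave 13 members and 1235 probe sets, but same-numbered arrays share only a number in the labels; their deviations correlated at 0.17 over tested probe sets.

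The sign turned for Cox6a2 minus Cox6a1, which ran from -0.16 to 0.32 with 1 array left out. Median centring turned Atp5mpl (0.0097), Cox4i2 (0.011), Cox8a (0.017), Ndufa4 (0.015) and Adgre1 (0.024), and with 1 array left out Atp5mpl ran from -0.28 to 0.029, Cox4i2 from -0.15 to 0.115 and Cox7b from -0.0093 to 0.20. The median of all tested genes was -0.0059 without a filter and ran from -0.0136 (without het 2) to 0.064 with 1 array left out, with -0.0018 without KO 1. The cause of these changes was not tested. Signal near background limits Cox7b2, Cox8c, Cox6b2 and Cox4i2.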
